A study of Homo sapiens with 2 samples.

Results

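The enzymes that build globo- and lacto-series glycolipid antigens were examined in H9, a human embryonic stem cell line grown without feeder cells. They are 10 genes, UGCG, B4GALT5, B4GALT6, A4GALT, B3GALNT1, B3GALT5, ST3GAL2, ST3GAL5, FUT1 and FUT2, picked for what their proteins make, with earlier results of these data known. The array design held 11 of its 58201 non-control probes for them, found through the RefSeq accession of each probe, out of 22439 genes named in this way. Of these 11 probes 9 were well above background on both arrays, 1 in substate 1 alone and 1 in neither. B4GALT6 had 2 probes and the other 9 genes had 1 probe each, so for those genes no further probe stands behind the value.

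Both groups were H9 cells in the medium TeSR-E8 on Matrigel, a basement membrane preparation, after earlier culture on vitronectin. Substate 1 (passage 35) formed typical colonies rich in the R-10G epitope, and substate 2 (passage 50) formed looser colonies with vimentin on the surface. Each substate was represented by 1 single-colour array, so the substates could be set side by side but not tested, without p-values. Substate and passage cannot be told apart. The paper places the move to Matrigel at passage 35, so substate and time on Matrigel cannot be told apart either. How the cells of either kind were gathered for RNA is not given in the sources used here. In mixed cultures of this kind, fewer cells of a type and less RNA per cell cannot be told apart.

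Glycosphingolipids are sugar chains built in the Golgi on the lipid ceramide. A common stem, glucosylceramide and then lactosylceramide, is made first, and the next sugar decides the branch. An alpha-linked galactose opens the globo-series, whose longer members carry the epitopes SSEA-3 and SSEA-4 of human pluripotent cells, a sialic acid opens the gangliosides, and an N-acetylglucosamine opens the lacto- and neolacto-series. Fucose in H-type linkage then caps globo and lacto chains as Globo H and the H antigens. Globo and lacto chains are known from undifferentiated human embryonic stem cells, and gangliosides from neural cells.

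The cells were checked against marker genes on the same arrays. Here and below a signal is the log2 processed intensity minus the 75th percentile of its array, and a difference is substate 2 minus substate 1 on that log2 scale. All 8 pluripotency genes that could be named, among them POU5F1, NANOG and SOX2, were well above background on both arrays, with a median difference of 0.19. VIM (vimentin) was 5.76-fold higher and CDH1 (E-cadherin) 2.78-fold lower in substate 2, in the direction of the labels. Of 5 mesoderm genes, 4 (TBXT, MIXL1, EOMES and HAND1) were well above background on neither array, and of 5 endoderm genes this held for SOX17 and GATA6. The other 3 endoderm genes were measured on both arrays, with a median difference of 0.46 and FOXA2 the highest at 0.77. Of 4 trophoblast genes that could be named 2 were measured on both arrays (median difference 0.03), CGA was detected in substate 2 alone (at least 2.12-fold higher) and GATA3 in neither. Among 6 fibroblast genes COL3A1, LUM and DCN were well above background on neither array, and the other 3 were measured on both, all lower in substate 2, with a median difference of -0.49.

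The 3 enzymes with the lowest differences were FUT1, FUT2 and B3GALT5, and the 3 that lead from lactosylceramide to globoside and to SSEA-4, A4GALT, B3GALNT1 and ST3GAL2, differed by 0.18 or less. FUT1 and FUT2 lie near each other on chromosome 19. The upstream sequence of these lowest members is printed with the E-box CACCTG (on the other strand CAGGTG) marked. This form is bound by ZEB1, ZEB2 and related repressors. Both fucosyltransferase genes have an annotated start site with 2 copies of it. Each run below holds the 250 bases before a start site, 5′ to 3′ on the strand of the gene, from RefSeq on the build GRCh38.p14, and capitals mark the E-boxes. FUT1 is shown at chr19:48755359-48755608 (minus strand), FUT2 at chr19:48695721-48695970 (plus strand), and B3GALT5, which has no match, at chr21:39612690-39612939 (plus strand).
FUT1: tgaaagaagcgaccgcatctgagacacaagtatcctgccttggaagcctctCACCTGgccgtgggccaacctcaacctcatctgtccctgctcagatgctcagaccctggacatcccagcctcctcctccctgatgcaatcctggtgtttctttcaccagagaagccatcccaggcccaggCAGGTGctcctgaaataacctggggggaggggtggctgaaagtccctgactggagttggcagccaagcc
FUT2: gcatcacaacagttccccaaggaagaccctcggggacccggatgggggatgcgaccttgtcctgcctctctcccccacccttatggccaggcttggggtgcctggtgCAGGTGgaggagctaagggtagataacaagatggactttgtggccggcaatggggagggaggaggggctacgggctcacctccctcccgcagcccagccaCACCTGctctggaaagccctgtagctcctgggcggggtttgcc
B3GALT5: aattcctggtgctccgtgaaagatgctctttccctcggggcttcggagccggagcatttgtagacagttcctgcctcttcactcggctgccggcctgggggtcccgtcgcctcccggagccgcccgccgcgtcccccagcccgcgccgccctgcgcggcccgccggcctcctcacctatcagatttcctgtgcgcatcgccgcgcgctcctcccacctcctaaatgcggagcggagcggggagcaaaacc

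In FUT1 the E-boxes began 199 and 69 bases before the start site, and in FUT2 they began 143 and 43 bases before it. The other annotated start site of FUT1, chr19:48752642-48752891, had none. RefSeq windows were at hand for 8 of the 10 genes, 17 windows in all, of which 3 held a match. Besides FUT1 and FUT2 this was only 1 of 5 windows of ST3GAL5. Of all 35116 upstream windows of the same length 17.5% held at least 1 match on either strand and 2.53% held at least 2. The motif was chosen with the values of the genes known, and a match is a run of letters and not a site shown to be bound. Whether a ZEB protein acts on FUT1 or FUT2 in these cells was not tested.

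**Figure D1:**
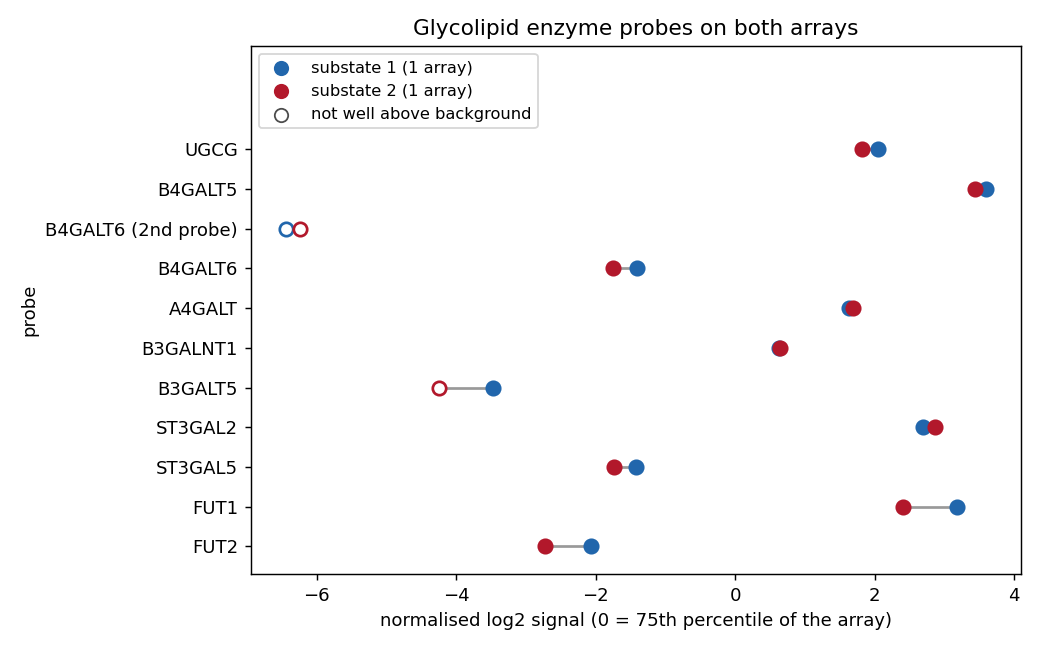
Normalised log2 signal of each of the 11 probes (x axis, 0 at the 75th percentile of the array) on the substate 1 array (blue) and the substate 2 array (red), with open points where a probe was not well above background. The red points of FUT1, FUT2 and B3GALT5 lie farthest to the left of their blue points, whereas those of A4GALT, B3GALNT1 and ST3GAL2 nearly coincide. Levels of different probes are not comparable.

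The enzymes of the stem had differences from -0.34 to -0.15, each smaller in size than the SD of probes of like signal. UGCG, which adds glucose to ceramide and so commits it to this pathway, gave signals of 2.04 (substate 1) and 1.82 (substate 2), and thus a difference of -0.23. B4GALT5, the main lactosylceramide synthase, had signals of 3.59 and 3.44, a difference of -0.15. B4GALT6, the second lactosylceramide synthase, had -1.41 and -1.75 by its measured probe, a difference of -0.34. The further probe of B4GALT6, for a predicted transcript, was well above background on neither array (processed intensities of 3.60 and 3.66), so it gives no fold. The SD among measured probes of like signal was 0.32 for UGCG, 0.29 for B4GALT5 and 0.44 for B4GALT6. The medians of the same probes were 0.08, 0.15 and -0.03. Taken from its median, B4GALT5 lay slightly beyond its SD, and UGCG and B4GALT6 lay within theirs. Of all measured probes, 23.4%, 29.7% and 15.4% had a lower difference. All 3 differences were below the median of 0.08 over the 16001 genes measured on both arrays. The SD that repeated spots of a probe give to a difference had a median of 0.066 for replicated probes with a lower intensity of 1000 or more (223 probes), 0.089 between 100 and 1000 (58 probes), and 0.22 under 100 (10 probes). Differences in culture, RNA preparation or dye labelling add to this spot error by an unmeasured amount.

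The globo-series enzymes fell into a near-level group and B3GALT5. A4GALT, which makes Gb3 from lactosylceramide, had signals of 1.63 and 1.70, a difference of 0.07, which was 0.24 under normexp correction and 0.28 with the plain background-subtracted signal. B3GALNT1, which turns Gb3 into globoside (Gb4), had 0.63 and 0.65, a difference of 0.01, whose sign turned under quantile normalisation (-0.01) and loess centring (-0.02). ST3GAL2, the sialyltransferase that makes the SSEA-4 epitope, had 2.69 and 2.87, a difference of 0.18. The differences of A4GALT and B3GALNT1 were within the spot SD of 0.089, and that of ST3GAL2 was above its 0.066 but only 0.06 above the median of probes of like signal (0.12, over 2556 probes measured on both arrays within 0.5 log2 units). As normalised here, all 3 transcripts lay close to the median of all measured genes.

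B3GALT5 adds the galactose that turns globoside into Gb5, which carries SSEA-3, and it also makes type 1 lacto chains. Its probe was dim, with a processed intensity of 28.2 in substate 1, and of 14.5 in substate 2, where it was no longer well above background. The dimmest probe that counted as well above background on the substate 2 array read 15.0. The value is therefore a bound, at least 1.65-fold lower in substate 2, from signals of -3.48 and -4.24 (plain difference of these signals -0.77). Under normexp background correction, which adds an offset of 50 to each signal, the difference was -0.06, so the bound rests on how dim signals are treated.

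At the entry to the gangliosides, ST3GAL5, which makes GM3 from the same lactosylceramide that A4GALT uses, had signals of -1.42 in substate 1 and -1.74 in substate 2. Its difference of -0.32 was larger than the spot SD of 0.22 and within the SD of 0.44 among the 4011 measured probes of like signal. It was -0.03 under normexp correction.

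The fucosyltransferases had the lowest differences among the enzymes measured on both arrays. FUT1, the H-type enzyme that makes Globo H from Gb5 and acts on type 2 chains, had processed intensities of 2855 and 1462 and signals of 3.19 and 2.41. The difference of -0.78, 1.71-fold lower in substate 2, compared with a median of 0.12 and an SD of 0.31 among the 2556 measured probes of like signal. Of all 29883 probes measured on both arrays 2.96% had a lower difference. FUT2, the secretor enzyme, which prefers type 1 chains, was dimmer, with intensities of 75.1 and 41.5 and signals of -2.06 and -2.73. The difference of -0.67, 1.59-fold lower, was larger than the spot SD of 0.22, with an SD of 0.47 among 4187 probes of like signal, and 4.55% of the measured probes had a lower one. FUT1 stayed between -0.91 and -0.74 under all 7 other ways of processing, and FUT2 between -0.68 and -0.62 except under normexp correction, which gave -0.34.

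**Figure D2:**
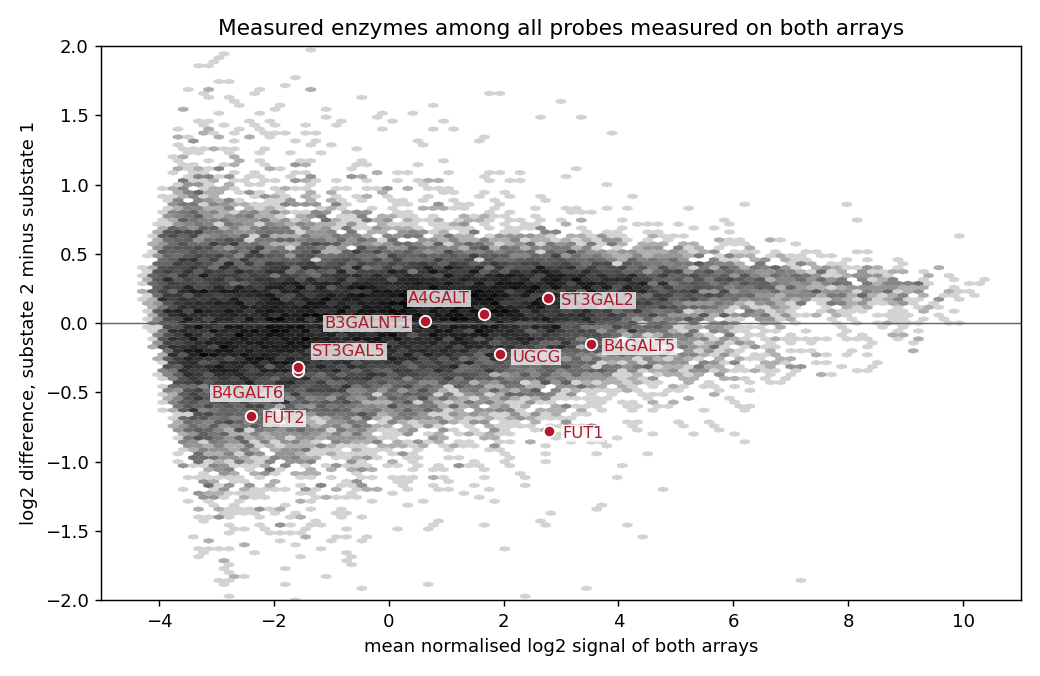
Difference between the substates (y axis, log2) against the mean normalised log2 signal (x axis) for the 29883 probes measured on both arrays (grey, darker for more probes; 35 probes beyond 2 in either direction are not drawn) and for the 9 measured enzyme probes (red). FUT1 lies at the lower edge of the probes of its brightness, while FUT2 lies among dimmer probes, which spread more widely.

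The genes along the chromosome near FUT1 and FUT2 were examined after the values of both had been seen. Between them lie MAMSTR (mean difference 0.13 over 2 probes), RASIP1 (-0.35) and IZUMO1 (0.20). On the outer sides DBP (0.27), CA11 (0.37), BCAT2 (0.10) and HSD17B14 (0.24) were measured on both arrays, and FGF21 was not. RASIP1 was thus the only one of these 7 measured neighbours that was lower in substate 2, by less than either fucosyltransferase.

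No enzyme passed the limits by which the study called transcripts. Its Z-score is the difference minus the mean of all probes (0.07), divided by their SD (0.63), with a limit of 2 in either direction. Of the 11 probes 0 were past the upper limit and 0 past the lower one, against 3.03% and 3.3% of all 58201 probes. The lowest Z-scores were -1.34 for FUT1, -1.33 for B3GALT5 and -1.17 for FUT2, and the highest among measured probes was 0.17 for ST3GAL2. Taking only probes above background in 1 or both substates, 0 of the 10 such enzyme probes were past 2-fold higher and 0 lower, against 1.55% and 1.67% of 33166. By 1.5-fold, 0 were higher and 3 were lower (FUT1, FUT2 and B3GALT5 by its bound), against 6.03% and 7.64%. The SD of the Z-score runs over dim probes as well. Over the 29883 probes measured on both arrays it was 0.40, and on that scale FUT1 had a Z-score of -2.01, past the limit, and FUT2 one of -1.74.

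Over the 9 genes measured on both arrays, 6 were lower and 3 higher in substate 2, where 40.2% of all 16001 measured genes were lower. Their median difference was -0.23 against 0.08 over all measured genes, and 8 of the 9 lay below that median. Of these, A4GALT (0.07) and B3GALNT1 (0.01) lay below it by less than their spot SD of 0.089. A4GALT was above the median of all genes under normexp correction (0.24 against 0.08). The same held with the plain background-subtracted signal (0.28 against 0.09). The median of the 9 genes ran from -0.29 to -0.18 over the other settings, with the same sign in each.

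**Figure D3:**
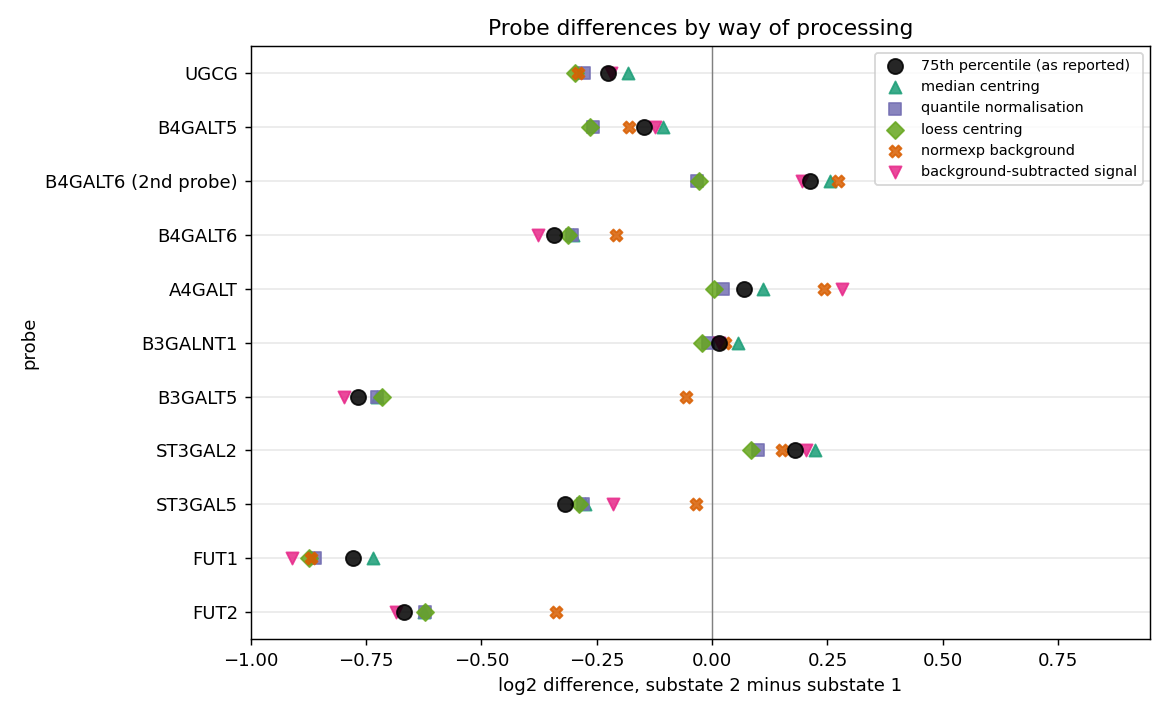
Difference of each of the 11 probes (x axis, log2, substate 2 minus substate 1) as reported (black) and under 5 other ways of processing (coloured). FUT1 is below -0.7 under each of them, B3GALT5, FUT2 and ST3GAL5 lie nearer 0 under normexp correction, and B3GALNT1 lies within 0.06 of 0 throughout.

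The rest of glycosphingolipid metabolism was taken from 7 gene lists. In the ganglioside branch beyond GM3, 6 of 9 measured genes were higher and 3 lower in substate 2, where 59.8% of all measured genes were higher, with a median of 0.34 against 0.08. ST6GALNAC5, which adds sialic acid to complex gangliosides, was 2.03-fold higher, with signals of -0.06 and 0.96. It was the only gene of the 7 lists whose value reached 2-fold. Of all 16001 measured genes, 149 were 2-fold or more higher and 171 were 2-fold or more lower. ST8SIA5 was the lowest, at -0.35. Some further genes of this branch are named after their values were seen. B4GALNT1, which makes GM2 and GD2, was detected in substate 2 alone and was at least 1.79-fold higher there. Its single probe was dim, with processed intensities of 5.02 (substate 1) and 22.7 (substate 2). The dimmest probe well above background on the substate 2 array read 15.0. ST8SIA3 had a difference of 0.57. The 2 probes of ST8SIA1, the GD3 synthase, disagreed, at 1.02 and -0.12. Of 8 neural marker genes 4 were well above background in substate 1 and 6 in substate 2. The added genes were POU3F2, at least 13.3-fold higher, and SOX1, at least 1.71-fold higher. The summed processed intensity of the neural probes, not scaled between the arrays, was 13578 and 16404. The 4 neural genes measured on both arrays had a median difference of 0.43. That of the 3 endoderm genes measured on both arrays, 2 of them higher, was 0.46. PAX6 and NEUROG2 were well above background on neither array. Whether these marker differences bear on the ganglioside values was not tested.

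In the lacto and neolacto branch 9 of 15 measured genes were higher and 6 lower, a split near that of all genes (59.8% higher). The median was 0.06, which the mean of the same genes did not share in sign (-0.003). The higher genes include FUT6 (0.20), named after its value was seen. Its measured probe read 356011 and 358497, whereas its other probe was well above background on neither array (7.84 and 3.05). By intensity the measured probe ranked 2 in substate 1 and 3 in substate 2 among all 58201 probes. Which of these probes reflects the FUT6 transcript was not tested. ST3GAL3, a sialyltransferase of lacto-type chains, was the highest, with differences of 0.69, 0.81 and 1.02 for its 3 probes, all in one direction. B3GNT2, which lengthens lactosamine chains, was the lowest at -0.57. Of the 2 genes that extend globosides, GBGT1 had a difference of 0.06 and A3GALT2 was well above background on neither array.

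For the lists that follow, 59.8% of all measured genes were higher and 40.2% lower in substate 2, with a median of 0.08. Ceramide supply had 5 genes higher and 10 lower, with a median of -0.10. Its genes ranged from -0.35 for SPTLC3, a serine palmitoyltransferase subunit, to 0.32 for GLTP, a glycolipid transfer protein. A further SPTLC3 probe went the other way, at least 1.38-fold higher. Of the genes that draw ceramide into other lipids, 3 were measured. UGT8, which makes galactosylceramide, was at -0.71, SGMS1, a sphingomyelin synthase named after its value was seen, at -0.42 and GAL3ST1, which sulphates galactosylceramide, at 0.23. For nucleotide sugars 10 of 13 genes were higher, with a median of 0.20. The highest was GNE, the first enzyme of sialic acid synthesis (0.61), and the lowest was SLC35A3, a Golgi sugar-nucleotide transporter (-0.65, with -0.83 and -0.46 for its 2 probes). In lysosomal breakdown 11 of 13 measured genes were lower, with a median of -0.21, from FUCA1, the lysosomal fucosidase (-0.51), to ARSA, which removes sulphate from sulphatide (0.15). None of these list medians has a test.

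**Figure D4:**
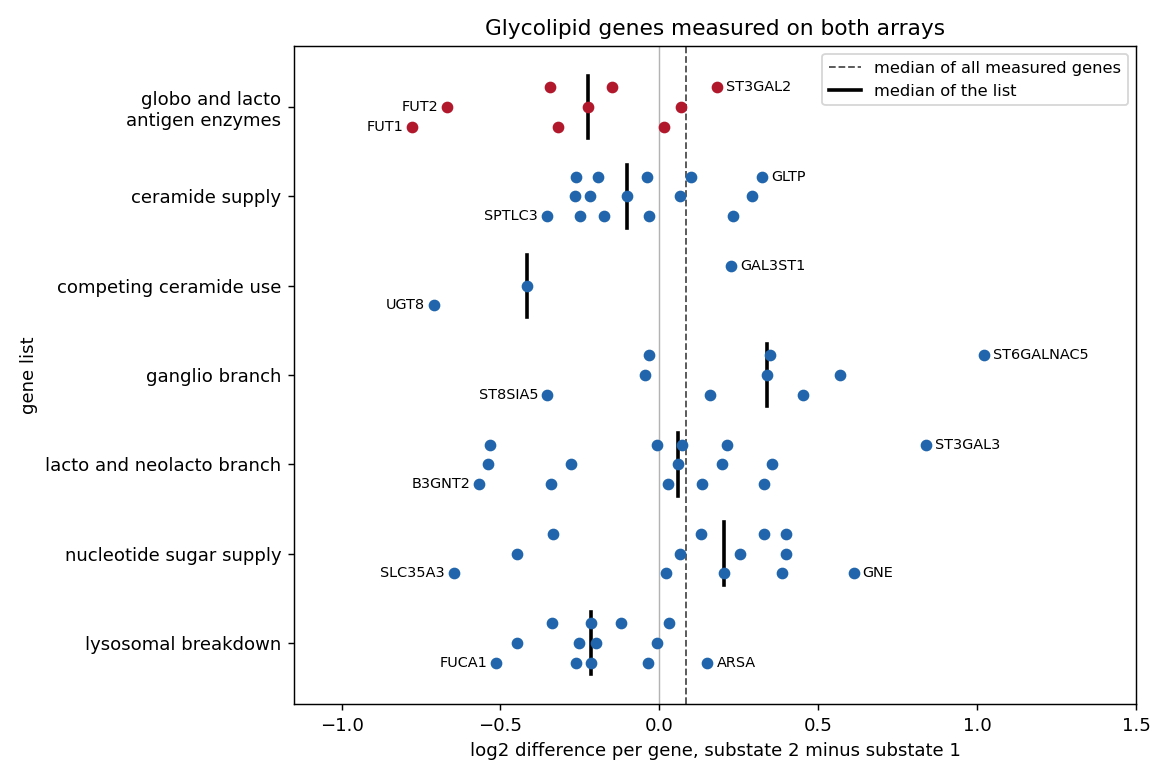
Difference per gene (x axis, log2, substate 2 minus substate 1) for the genes of each list measured on both arrays (points; red for the enzymes described above), with the median of each list (black bar) and of all measured genes (dashed, 0.08). The globo extension list, with 1 measured gene, is not drawn. The ganglio branch has its median at 0.34 and the globo and lacto antigen enzymes theirs at -0.23.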

How the data were processed

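The authors deposited the Agilent scanner output of both arrays, in which, per the file headers, Feature Extraction 11.5.1.1 (protocol GE1_1105_Oct12) gave every spot a background-subtracted, spatially detrended intensity. A deposited matrix of log2 values differed from the values computed here by a constant per array for 100% of 58201 probes within 0.01. The number of arrays limits the precision.

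Non-control spots that were not outliers were floored at 1 (0 spots were lower), log2-transformed, averaged per probe and shifted by the 75th percentile of the array. Probes were named by unversioned RefSeq accession in a GRCh38.p14 table (53.4% of probes). The array was annotated on hg19, so only names, gene order and the table's own upstream windows were used. Gene values were means over probes well above background on both arrays. A probe measured on 1 array was given a bound, in which its dim side took its own signal or, if higher, the lowest signal well above background on that array. Python 3.11.15, numpy 2.4.6, pandas 2.3.3, R 4.3.3 and limma 3.58.1 were used, and the measures were tested on simulated data.

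The members and the gene lists were chosen with earlier results of these data known. Named genes were all 10 members and, of each other list, genes that reached 2-fold by value or bound and the highest and lowest gene; any other gene is said in the text to be named after its value was seen. One gene of the lysosomal list is not reported here and was left out of its counts. Alternatives were median centring, quantile normalisation, loess centring (span 0.3), normexp correction (offset 50), the plain background-subtracted signal, the deposited matrix, outlier spots kept, other Z-score populations, a 1.5-fold limit and other gene values.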

Additional observations from a re-analysis of the deposited data

How the results depend on the processing

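Of the counts and medians under other settings, 63 stayed within 1.5 times the reported count or within the spot SD of 0.071. Of the rest, 12 moved further and 1 turned sign. Many of the 63 were counts of 0 that stayed at 0. Others came from the deposited matrix or from keeping outlier spots, which left the enzyme values nearly unchanged, so the tally does not measure robustness. No enzyme probe was past the lower Z-score limit as reported, whereas 3 were with a median absolute deviation in place of the SD, 1 (FUT1) with the Z-score over probes measured on both arrays and 1 (FUT1) under normexp correction. At 1.5-fold in place of 2-fold, 3 were lower. The median of ceramide supply was -0.22 after loess centring and -0.22 after quantile normalisation, and that of lysosomal breakdown was -0.32 and -0.31. That of nucleotide sugar supply was 0.0595 after loess centring and 0.0776 after quantile normalisation, and its mean was 0.11. The mean for competing ceramide use was -0.30, and that of the lacto and neolacto branch turned sign (-0.0027). The cause of these shifts was not tested. Among single probes, B3GALNT1 turned sign after loess centring (-0.0209) and quantile normalisation (-0.0096), and so did the dim B4GALT6 probe (-0.0273 and -0.0337). Median centring shifted every difference alike, and the median of all measured genes with it, from 0.08 to 0.13. Naming by the gene names of the array design was not run, since only accessions were read, and normexp used the median spot signal, a choice made after the columns were seen. No paired analysis was possible because there was 1 array of either kind. Normexp correction moved A4GALT, FUT1, the dim probes of B3GALT5, FUT2 and ST3GAL5, and the measured probe of B4GALT6 by more than 0.071. Signal over background left B3GALT5 with a bound only.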

Other observations

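Some further glycosylation genes are given as values. Of the 3 probes of ABO, the blood group transferase that acts on the H antigen made by FUT1 and FUT2, 2 gave measurable differences (-0.27 and -0.80), and 1 was near background on both arrays. NEU4, a sialidase, was well above background in substate 1 only and at least 1.74-fold lower in substate 2. FUT3, the Lewis fucosyltransferase, was likewise at least 1.32-fold lower. Both probes were dim, with processed intensities of 29.7 and 9.97 for NEU4 and 22.6 and 8.11 for FUT3. The dimmest probe well above background on the substate 2 array read 15.0. ABO and FUT3 come from the lacto and neolacto list, where 9 of 15 measured genes were higher in substate 2 and 6 lower. Each of these values rests on 1 array per substate, and the genes were named after their values had been seen.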
